A study of Gallus gallus with 16 samples.

Results

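The potassium channel genes are the genes of the chick genome whose symbols begin with KCN, and they were followed in RNA-seq of the retina/RPE/choroid across form deprivation and the recovery from it. Members were all genes of the count table with such a symbol, which gave 71 genes of 17108. Of these, 59 reached the minimum of 10 counts in at least 4 of the 16 libraries and were tested with the 11334 genes that met the same filter. The libraries came from the right eyes of 16 male chicks of a Leghorn and New Hampshire background, 1 library per chick, in 4 groups of 4. No-Lens controls (chicks 3, 4, 6 and 7) wore no lens. The FDMR 0 h group (chicks 9, 10, 12 and 13) wore a translucent occluder for 7 days and was sampled at its removal. In the FDMR 6 h group (chicks 18, 19, 21 and 23) and the FDMR 24 h group (chicks 26, 29, 30 and 32) the same occlusion was followed by 6 h or 24 h without the occluder. The 24 h took in the dark phase of the light cycle. The labels give an age of 20 days post-hatch, or 21 days for FDMR 24 h, whereas the rearing protocol gives a younger age. The 4 chicks of each group had been picked by the authors for comparable axial length. The other 3 groups were sampled at one hour of the day and FDMR 6 h at a later one, and hours of recovery and hour of the day cannot be told apart there.

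Potassium channels let potassium ions out of, or into, a cell along their gradient and so set its resting voltage and end its electrical responses. Voltage-gated channels (Kv, KCNQ and KCNH) open on depolarisation, inward rectifiers (KCNJ) and two-pore channels (KCNK) carry current near rest, and calcium-activated channels (KCNM, KCNN) open when calcium rises in the cell. In the eye, photoreceptors and bipolar, amacrine and ganglion cells use different sets of these genes to shape their light responses. Light lowers the potassium concentration in the space between photoreceptors and pigment epithelium (RPE), and channels of the RPE and of Müller glia take part in restoring it.

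Counts on genes ranged over the chicks between 1553717 (FDMR 24 h chick 29) and 4816425 (FDMR 0 h chick 13), with a median of 4016147. The potassium channel genes took 0.191% to 0.225% of them. Levels are given as CPM, read counts scaled to the library size with TMM factors, which are not divided by gene length and so cannot be compared between genes. Differences are log2 fold changes from edgeR's quasi-likelihood fit over the 16 libraries, and a gene was called at a Benjamini-Hochberg adjusted p under 0.05 over all genes tested. With 4 chicks against 4, the smallest two-sided p of an exact permutation test is 0.0286. Markers of the retina, RPE and vessels were detected in every group, and no marker list had a member at 0. Photoreceptor markers (7 of 8 in the table) summed to 3041 to 3715 CPM at 6 h, against 4521 to 5104 CPM at 0 h, and smooth muscle markers (5 of 7) to 416 to 676 CPM at 6 h, against 769 to 949 CPM at 0 h. Of the photoreceptor markers, ARR3, PDE6C, CNGA3 and GRK7 were called lower at 6 h (log2 fold changes between -1.19 and -0.77), and GNAT2 and GNAT1 were not called. Of the smooth muscle markers, TAGLN and ACTG2 were called lower at 6 h (log2 fold changes of -1.28 and -1.15), MYH11, DES and SMTN were not called, and SMTN had a log2 fold change of 0.53. Whether fewer cells of a type or less RNA per cell lay behind a lower level cannot be told apart in bulk tissue.

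Among the 71 genes, the voltage-gated Kv alpha subunits were the largest class, with 20 of 21 genes tested. All 7 KCNH genes were tested, as were 4 of 5 KCNQ genes, 6 of 10 auxiliary subunits of Kv channels, 8 of 9 inward rectifiers, 9 of 12 two-pore channels and 5 of 7 calcium- and sodium-activated channel genes. Genes below the filter included KCNE1 with 2 counts in total, KCNK16 with 5, KCNU1 with 6, KCNK17 with 21, KCNE3 with 32, KCNK13 with 36, KCNJ16 with 40, KCNS3 with 56, KCNE4 with 65, KCNN3 with 103 and KCNE2 with 122. The KCNE auxiliary subunits were thus all below it. KCNMA1, the pore-forming subunit of the large-conductance calcium-activated (BK) channel, took the most reads of the family with 12740 counts.

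Most potassium channel genes were not called in any comparison. At 0 h compared with the No-Lens controls, that is after prolonged occlusion, 0 of the 59 were called by edgeR, against a background of 0.0265% of the genes tested, and 7 had an unadjusted p under 0.05 (11.9%, background 4.01%). DESeq2 and edgeR's likelihood ratio test also called 0, each with 7 at an unadjusted p under 0.05. At 6 h compared with 0 h, KCNJ13 and KCNMB2 rose and KCNQ1 fell, which is 3 of 59 (5.08%, background 3.19%), with 9 at an unadjusted p under 0.05 (15.3%, background 11.7%). At 24 h compared with 6 h, KCNK18 was higher and KCNMB2 lower, 2 of 59 (3.39%, background 1.94%). KCNK18 would not have met the count filter without its 24 h libraries, and not counting its call leaves KCNMB2, 1 of the 59 (1.69%). In this comparison 18 had an unadjusted p under 0.05 (30.5%, background 15.7%). KCNJ13 alone was called at 24 h compared with 0 h (1.69%, background 1.12%), where 8 had an unadjusted p under 0.05 (13.6%, background 9.55%). KCNJ13 and KCNMB2 were both higher than in the controls at 6 h (3.39%, background 2.74%) and at 24 h (3.39%, background 1.33%). In these comparisons with the controls, 6 of 59 at 6 h (10.2%, background 9.46%) and 12 of 59 at 24 h (20.3%, background 13.8%) had an unadjusted p under 0.05. The test of any difference among the 4 groups called KCNH4, KCNJ13, KCNMB2 and KCNQ1 (6.78%, background 4.01%), and 14 had an unadjusted p under 0.05 (23.7%, background 14.4%). The median log2 fold change of the 59 lay between -0.06 (6 h compared with the controls) and 0.04 (24 h compared with 0 h), and that of all genes tested between -0.02 and 0.01. The 95% confidence interval lay within 0.5 of 0 on the log2 scale for 21 to 26 of the 59 genes, depending on the comparison, and that of the others reached further.

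**Figure D1:**
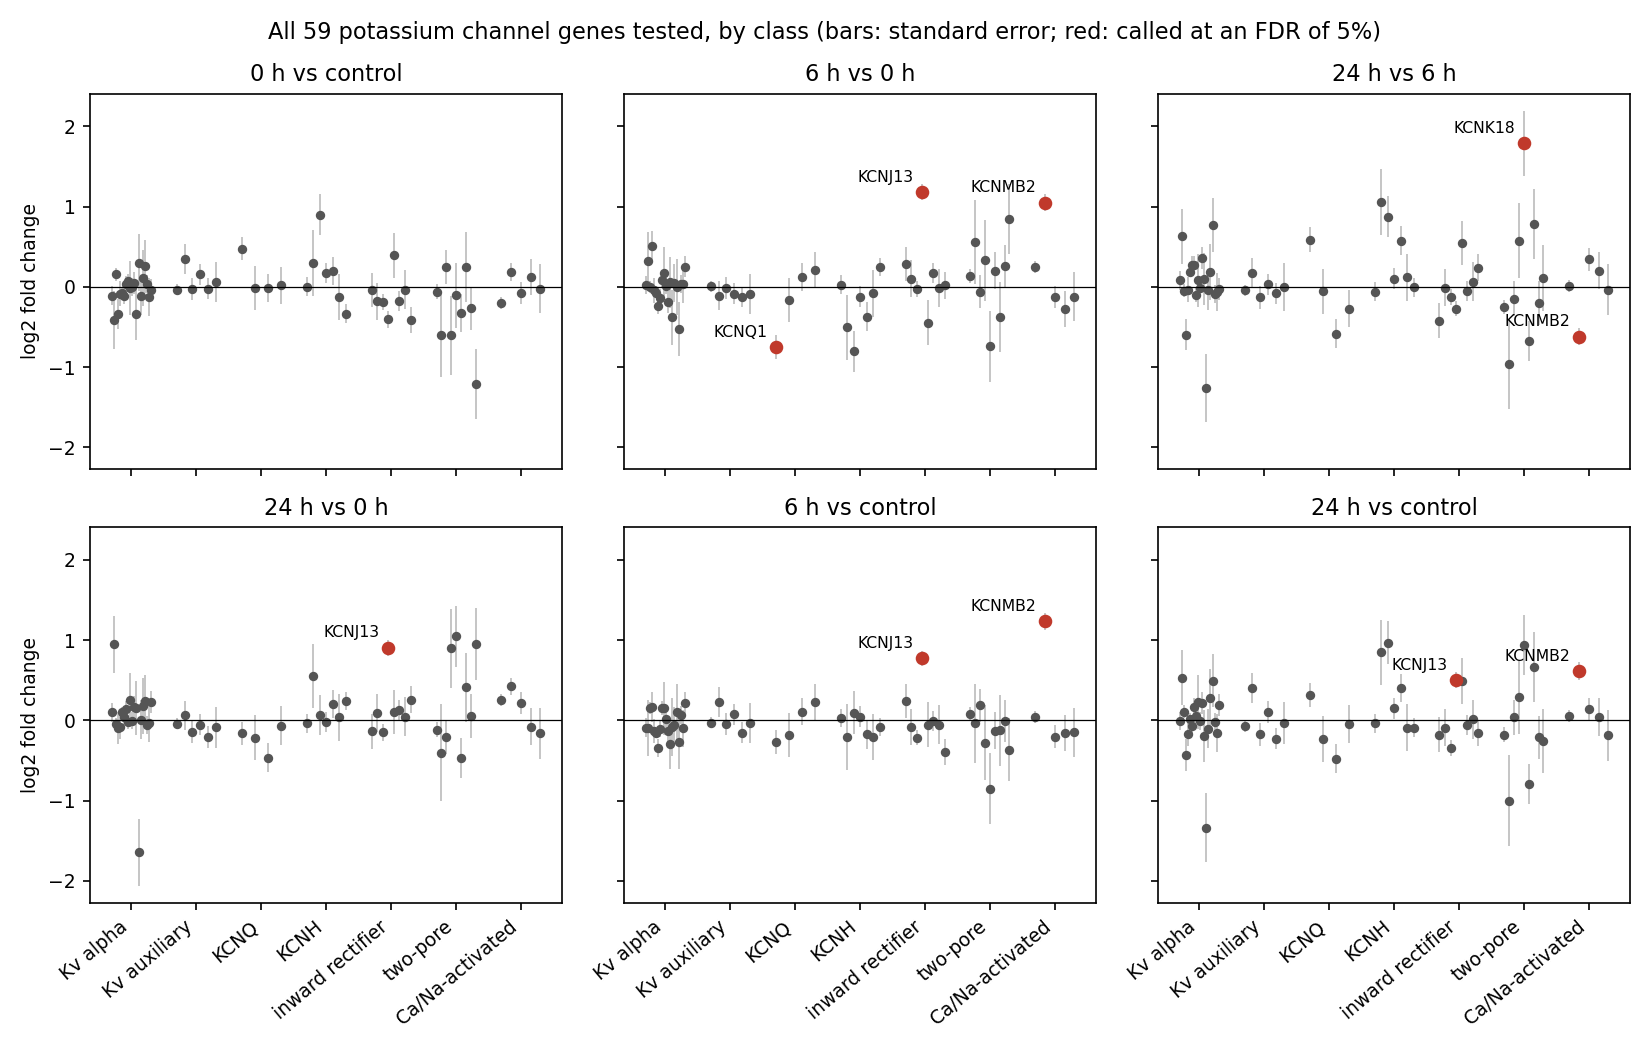
Log2 fold change (y axis) of the 59 potassium channel genes tested in each of the 6 comparisons, by class (x axis), where bars are standard errors and red points are genes called at an FDR of 5%. Most genes lie close to 0, and KCNJ13, KCNMB2, KCNQ1 and KCNK18 are the genes called.

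KCNJ13 (ENSGALG00000001490) rose in both recovery groups. It encodes an inward rectifier that sits in the apical membrane of the mammalian RPE, where it passes potassium towards the photoreceptors, and its mutation causes retinal degeneration in humans. Its level was 30.5, 27.8, 31.1 and 31.4 CPM in the 4 No-Lens controls. At 0 h it was 24.4, 19.6, 23.3 and 23.7 CPM. After 6 h of recovery it was 50.5, 47.8, 55.8 and 52.1 CPM, and after 24 h it was 45.0, 47.2, 39.996 and 39.8 CPM. No chick of any group overlapped with those of another, with the lowest values at 0 h and the highest at 6 h.

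The rise of KCNJ13 at 6 h compared with 0 h was 1.18 on the log2 scale (SE 0.10, edgeR adjusted p = 5.65e-07). At 24 h compared with 0 h it was 0.90 (SE 0.10, edgeR adjusted p = 9.32e-05). KCNJ13 was higher than in the controls by 0.77 at 6 h (SE 0.10, edgeR adjusted p = 6.29e-05) and by 0.50 at 24 h (SE 0.10, edgeR adjusted p = 0.0124). The last call was lost without control chick 4, when the edgeR adjusted p was 0.0566. It was also lost in the fit of the compared groups alone and in the one without chicks 3, 9 and 26. These were 3 of 15 alternatives, over which the adjusted p ranged from 0.00168 to 0.0795. The log2 fold change was -0.40 at 0 h compared with the controls (SE 0.10, edgeR adjusted p = 0.62, unadjusted p = 0.000985), and -0.27 at 24 h compared with 6 h (SE 0.10, edgeR adjusted p = 0.17). The exact permutation test gave 0.0286 for each of the 6 pairs of groups.

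**Figure D2:**
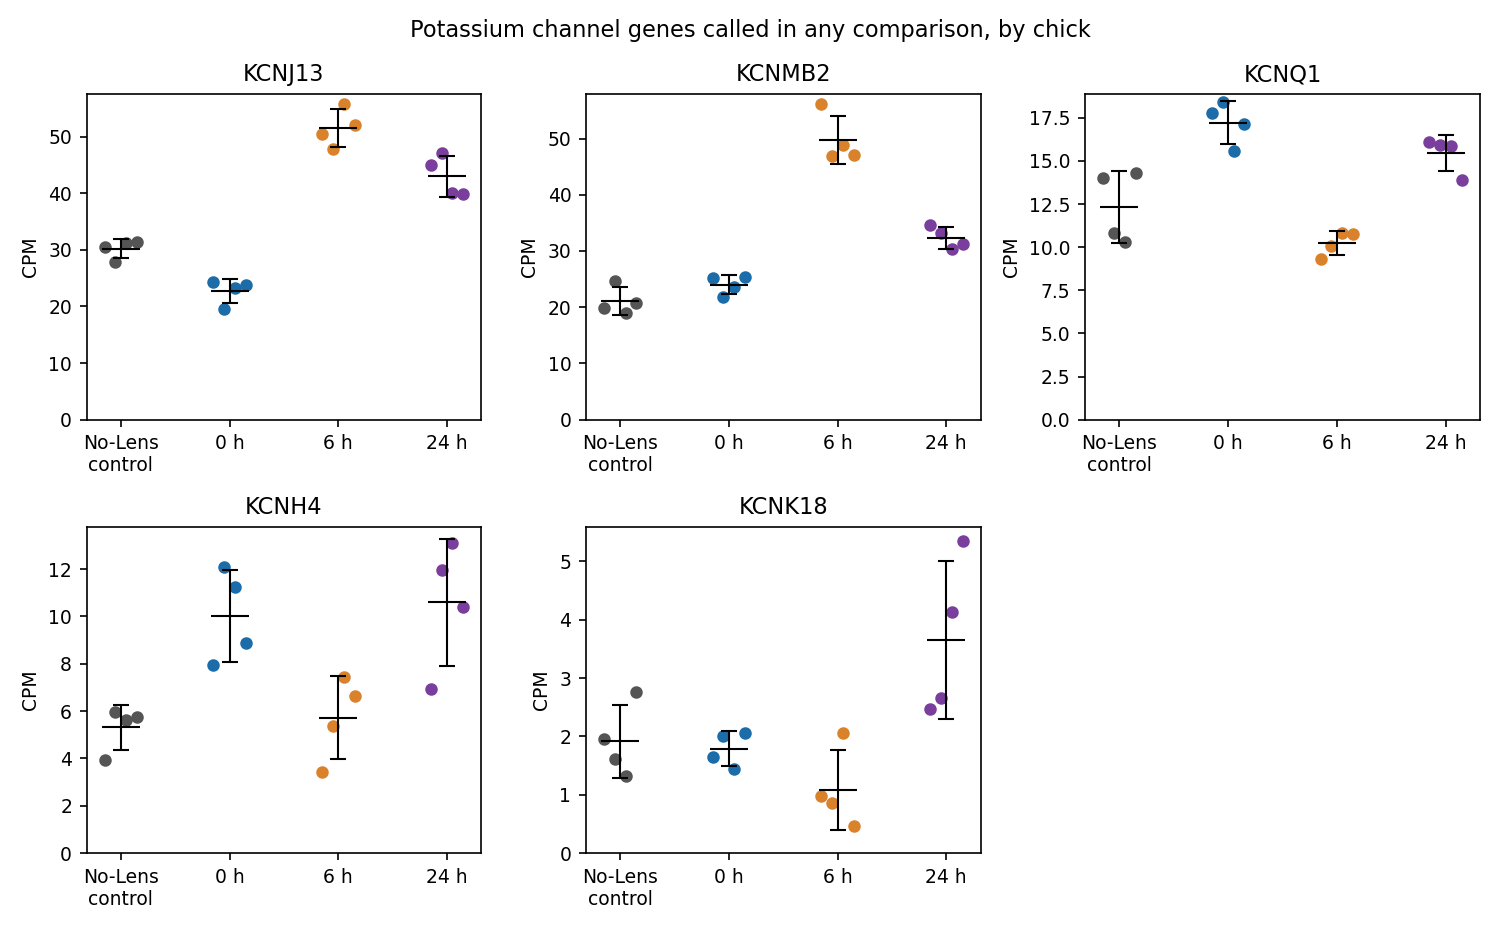
CPM (y axis) of the 5 potassium channel genes called in any comparison, for each chick (points) of the No-Lens controls and of FDMR 0 h, 6 h and 24 h (x axis), with the mean and SD of the 4 chicks of a group (bars). KCNJ13 and KCNMB2 are highest at 6 h, where KCNQ1 is lowest, and KCNK18 is highest at 24 h with a wide spread.

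None of the markers of the RPE rose at 6 h compared with 0 h. RPE65, the isomerase of the visual cycle, had a log2 fold change of 0.11 at 6 h compared with 0 h (SE 0.11, edgeR adjusted p = 0.77) and ranged from 562 to 746 CPM at 6 h, against 531 to 588 CPM at 0 h. TTR, which encodes the retinol carrier partner transthyretin, had 0.08 (SE 0.14), the chloride channel gene BEST1 -0.32 (SE 0.20) and the retinol dehydrogenase gene RDH5 -0.59 (SE 0.46), and none of these 4 was called in any comparison. LRAT, which esterifies retinol, fell by 0.95 on the log2 scale at 6 h compared with 0 h (edgeR adjusted p = 3.4e-06) and was higher by 1.001 at 24 h compared with 6 h (edgeR adjusted p = 9.65e-06). Summed over the 5 of 6 RPE markers in the table, levels were 901 to 1136 CPM at 6 h, against 983 to 1016 CPM at 0 h. KCNJ13 counts per RPE65 count were 0.0748 to 0.0919 at 6 h, against 0.0341 to 0.0459 at 0 h, and 0.0674 to 0.0805 at 24 h, against 0.0470 to 0.0602 in the controls. In RefSeq's annotation of the GRCg7b assembly, which is not the build the reads were aligned to, KCNJ13 overlaps GIGYF2. GIGYF2 ranged from 190.2 to 209.9 CPM at 6 h, against 178.6 to 206.4 CPM at 0 h, and its log2 fold change was 0.05 (SE 0.07, edgeR adjusted p = 0.86).

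**Figure D3:**
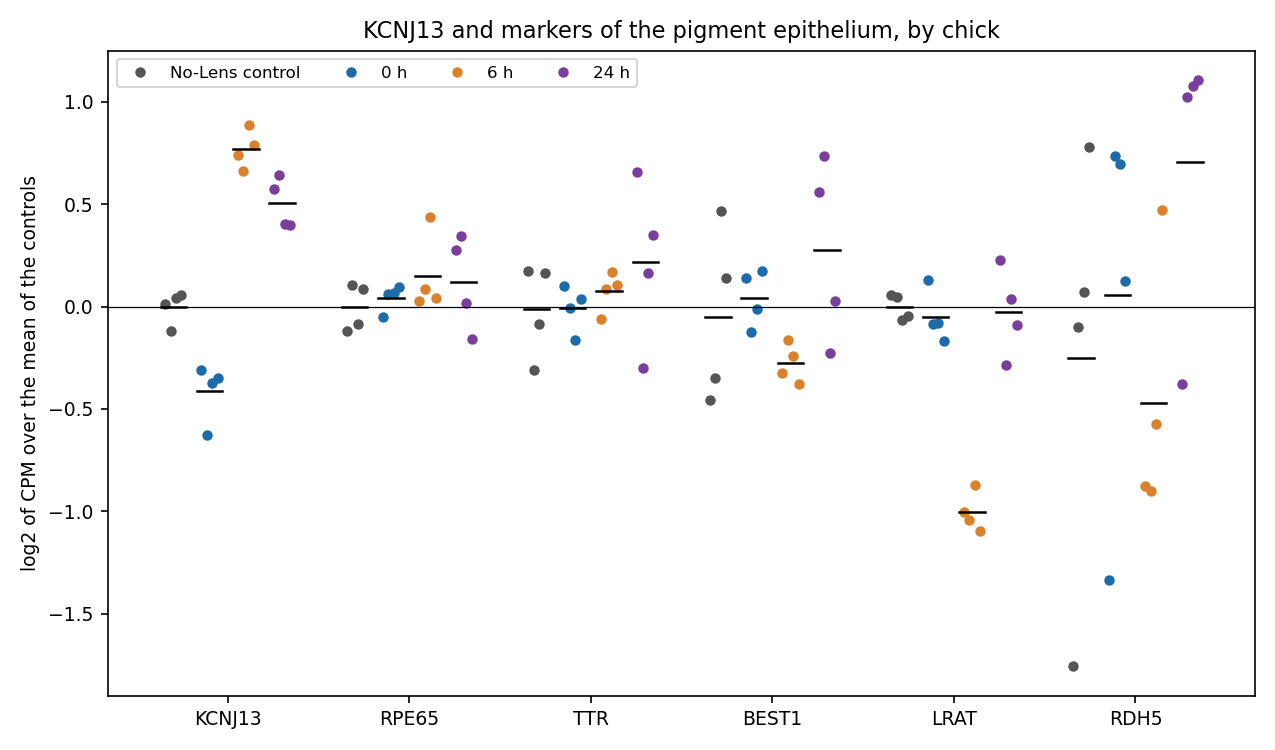
Level of KCNJ13 and of 5 markers of the pigment epithelium in each chick, as log2 of CPM over the mean of the 4 No-Lens controls (y axis), with points coloured by group and a line at each group's mean. KCNJ13 is above 0 in every chick at 6 h and 24 h, RPE65 and TTR stay near 0 in most chicks, and LRAT lies low in the 4 chicks at 6 h.

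None of the other 7 inward rectifiers tested was called in any comparison (backgrounds 0.0265% to 3.19%). KCNJ12, which encodes a strong inward rectifier and took the most reads of the class, ranged from 44.5 to 54.7 CPM in the controls, from 41.3 to 46.5 CPM at 0 h, from 40.4 to 43.9 CPM at 6 h and from 32.8 to 43.2 CPM at 24 h. Its lowest control chick was above its highest chick at 24 h. The log2 fold change at 24 h compared with the controls was -0.34 (SE 0.10, edgeR adjusted p = 0.12), with a 95% confidence interval of -0.55 to -0.13. Over the 8 genes of the class, the median log2 fold change ran from -0.18 at 0 h compared with the controls to 0.09 at 24 h compared with 0 h. KCNJ1 and KCNJ5 overlap one another in RefSeq's annotation, and the counts of both are uncertain where they overlap.

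Among the calcium-activated channel genes, KCNMB2 rose at 6 h. It encodes an auxiliary subunit of the BK channel, known from mammals to make the current inactivate. KCNMB2 (ENSGALG00000027617) was at 19.9, 24.6, 18.9 and 20.8 CPM in the controls, and at 25.2, 21.9, 23.6 and 25.4 CPM at 0 h. Its level at 6 h was 56.1, 46.9, 48.9 and 47.1 CPM, and at 24 h 34.6, 33.2, 30.3 and 31.2 CPM. Control and 0 h chicks overlapped with each other, whereas the 6 h chicks were above all others and the 24 h chicks lay in between. KCNMB2 was higher at 6 h than at 0 h by 1.05 on the log2 scale (SE 0.10, edgeR adjusted p = 3.4e-06) and than in the controls by 1.23 (SE 0.11, edgeR adjusted p = 8.33e-07). At 24 h it fell by 0.62 on the log2 scale compared with 6 h (SE 0.10, edgeR adjusted p = 0.00231), and it was above the controls by 0.61 (SE 0.11, edgeR adjusted p = 0.0063). That last call was lost in 2 of 15 alternatives, the fit of the compared groups alone and the one without chicks 3, 9 and 26, with an adjusted p between 0.000575 and 0.0644 over the 15. Compared with 0 h, the 24 h value was higher by 0.42 and missed the threshold (SE 0.11, edgeR adjusted p = 0.077).

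The pore-forming partner KCNMA1 was not called in any comparison. It averaged 219 ± 19.2 CPM at 6 h and 185 ± 12.5 CPM at 0 h (SD, n = 4 each), a log2 fold change of 0.24 (SE 0.08, edgeR adjusted p = 0.12). At 24 h compared with 0 h its log2 fold change was 0.25 (SE 0.08, edgeR adjusted p = 0.18), and at 24 h compared with 6 h it was 0.01 (SE 0.08). There were 0.198 to 0.268 KCNMB2 counts per KCNMA1 count at 6 h, against 0.115 to 0.150 at 0 h. At 24 h this ratio was 0.134 to 0.162, against 0.0855 to 0.130 in the controls. These are ratios of reads and not of transcripts, so that they compare groups but do not give the make-up of the channel. The other 3 genes tested in the class were not called. RefSeq's annotation places 2 long non-coding RNA genes over KCNMB2.

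KCNQ1 fell at 6 h. It encodes a slowly activating channel best known for ending the heartbeat's action potential together with KCNE1, which had only 2 counts in these libraries. KCNQ1 (ENSGALG00000006472) was at 14.0, 10.8, 10.3 and 14.3 CPM in the controls, and at 17.8, 18.4, 15.6 and 17.1 CPM at 0 h. The 6 h chicks had 9.31, 10.1, 10.8 and 10.7 CPM, and those at 24 h had 16.1, 15.9, 15.9 and 13.9 CPM. All 4 chicks at 6 h were below all 8 chicks at 0 h and 24 h, and overlapped with the controls. At 6 h compared with 0 h KCNQ1 fell by 0.75 on the log2 scale (SE 0.15, edgeR adjusted p = 0.00459). At 24 h compared with 6 h the log2 fold change was 0.59, which missed the threshold (SE 0.15, edgeR adjusted p = 0.0504), and at 0 h compared with the controls it was 0.47 (SE 0.15, edgeR adjusted p = 0.87, unadjusted p = 0.00422). The summed levels of smooth muscle and photoreceptor markers were also lower at 6 h than at 0 h. At 24 h the smooth muscle sum was 411 to 621 CPM, against 416 to 676 CPM at 6 h. The photoreceptor sum was 4153 to 5401 CPM at 24 h, against 3041 to 3715 CPM at 6 h. The part of these markers in the fall of KCNQ1 was not tested.

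In the KCNH class, KCNH4 differed among the 4 groups. It belongs to the ELK branch of these voltage-gated channels. KCNH4 (ENSGALG00000003354) had 3.92, 5.98, 5.63 and 5.77 CPM in the controls, and 7.94, 12.1, 11.2 and 8.88 CPM at 0 h. At 6 h it had 3.43, 5.35, 7.46 and 6.63 CPM, and at 24 h 6.92, 12.0, 13.1 and 10.4 CPM. The 0 h chicks were above both the controls and the 6 h chicks, and the 24 h chicks overlapped with those at 6 h. The test of any difference among the groups gave an edgeR adjusted p of 0.0401, while no pair of groups passed. The log2 fold change was 0.97 at 24 h compared with the controls (SE 0.26, edgeR adjusted p = 0.085), 0.90 at 0 h compared with the controls (SE 0.26, edgeR adjusted p = 0.83) and -0.80 at 6 h compared with 0 h (SE 0.26, edgeR adjusted p = 0.12). These levels rest on 14 to 57 counts per chick.

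KCNH6 and KCNH7, which encode channels of the ERG branch, took the most reads of the class. KCNH6 averaged 134 ± 26.1 CPM at 24 h and 88.9 ± 9.20 CPM at 6 h (SD, n = 4 each), and the groups did not overlap, with a log2 fold change of 0.58 (SE 0.18, edgeR adjusted p = 0.12). KCNH7 varied widely between chicks of one group. It was at 40.3 CPM in chick 13, against 76.1 to 79.8 CPM in the other chicks at 0 h, and at 34.5 CPM in control chick 4, against 82.4 to 94.3 CPM in the other controls. KCNH8, another ELK gene, ranged from 29.6 to 38.8 CPM at 0 h, against 41.8 to 47.1 CPM in the controls, a log2 fold change of -0.33 that was not called (SE 0.12, unadjusted p = 0.0096).

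The voltage-gated Kv alpha subunits make up the pores of delayed rectifier and transient potassium currents. They gave 0 calls among 20 genes in each of the 6 comparisons (backgrounds 0.0265% to 3.19%), and 0 of 20 is near those shares. Their median log2 fold change was between -0.09 (6 h compared with the controls) and 0.07 (24 h compared with 0 h). An unadjusted p under 0.05 was found for 7 of the 20 at 24 h compared with 6 h (background 15.7%), for 2 in each of 4 other comparisons (backgrounds 9.46% to 13.8%) and for 0 at 0 h compared with the controls (background 4.01%). KCNB2, a delayed rectifier, averaged 74.6 ± 7.59 CPM at 6 h and 94.8 ± 8.09 CPM in the controls (SD, n = 4 each), with a log2 fold change of -0.34 (SE 0.11, edgeR adjusted p = 0.12). KCNG1, a silent subunit that acts only in company of other Kv subunits, was low everywhere, at 3 to 6 counts per chick at 24 h, against 9 to 20 counts at 0 h. Its log2 fold change at 24 h compared with 0 h was -1.64, not called (SE 0.42, edgeR adjusted p = 0.070).

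The 6 auxiliary subunits of Kv channels tested showed no call in any comparison either (backgrounds 0.0265% to 3.19%). KCNAB1, a cytoplasmic beta subunit, was the member with the smallest coefficient of variation over the 16 chicks, 5.51%. It averaged 119.9 ± 2.64 CPM at 24 h and 126 ± 7.25 CPM in the controls (SD, n = 4 each), and the 95% confidence interval of its log2 fold change, -0.22 to 0.07, bounds a difference between them. KCNIP2, a calcium-binding partner of transient channels, ranged from 55.4 to 89.4 CPM over the chicks, and its largest log2 fold change was 0.16 at 0 h compared with the controls (SE 0.13, 95% confidence interval -0.12 to 0.43).

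KCNK18 was the one two-pore channel gene called, at 24 h compared with 6 h. It encodes a background channel that calcium signalling activates, studied mostly in sensory neurons. KCNK18 (ENSGALG00000009265) had counts of 7, 7, 4 and 12 in the controls, 6, 7, 5 and 10 at 0 h, 4, 4, 8 and 2 at 6 h, and 10, 4, 18 and 20 at 24 h. In CPM these were 2.47, 2.66, 4.14 and 5.34 at 24 h, against 0.980, 0.857, 2.06 and 0.457 at 6 h. The 2 groups did not overlap, but the highest control chick, with 2.77 CPM, was above 2 of the 24 h chicks. KCNK18 was higher at 24 h by 1.79 on the log2 scale (SE 0.41, edgeR adjusted p = 0.0265). Only 5 libraries, 3 of them at 24 h, held 10 counts or more where 4 were needed, so that the gene met the filter only through the group where it was high, and a difference was favoured by that choice. The call was lost without any one of chicks 18, 19, 23, 30 or 32, and over 14 alternatives the edgeR or DESeq2 adjusted p ranged from 0.00214 to 0.118.

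KCNK1, which encodes a weakly rectifying background channel and took the most reads among the two-pore genes, averaged 40.8 ± 5.53 CPM at 24 h and 49.4 ± 1.18 CPM at 6 h (SD, n = 4 each). Its log2 fold change was -0.25 (SE 0.09, edgeR adjusted p = 0.19). The median log2 fold change of the 9 two-pore genes lay between -0.27 at 0 h compared with the controls and 0.20 at 6 h compared with 0 h. Of these 9 genes, 4 had fewer than 16 libraries at 10 counts or more, and their error was large.

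KCNK3, KCNH2 and KCNS1 varied between chicks of one group more than nearly all other genes. KCNK3 encodes an acid-sensitive background channel and had the largest coefficient of variation over the 16 chicks of the 38 members with a mean of at least 50 counts, 50.9%. KCNH2, the ERG channel of the heart and of neurons, and KCNS1, a silent Kv subunit, were chosen for description after their values were seen. Within groups, the coefficient of variation was 48.5% for KCNK3, 43.8% for KCNH2 and 36.8% for KCNS1. These values stood above those of 99.6%, 99.2% and 98.1% of the 8448 genes with such a mean. The median was 12.7% over the 38 members and 11.4% over all 8448 genes, and KCNAB1 had 5.72%.

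In 3 of the 4 groups 1 chick was the lowest for all of these genes, chick 3 among the controls, chick 9 at 0 h and chick 26 at 24 h. Each of these 3 libraries had the largest share of reads on no annotated gene in its group, 40.2%, 40.4% and 38.3%. At 6 h the largest such share was in chick 18, 38.6%, which was the lowest of its group for KCNK3 but not for KCNH2 or KCNS1. Of the 38 members with a mean of at least 50 counts, 9 were lowest in all 3 of these chicks (23.7%), as were 899 of the 8448 genes (10.6%). Among these members were also KCNH6, KCNAB2, KCNIP2, KCNMB4 and KCNT1. Chick 26 was the lowest of its group for 47.4% of the 38 members and 25.1% of the 8448 genes. The shares were 36.8% and 25.4% for chick 9, and 28.9% and 28.0% for chick 3. Control chick 4 was lowest for more of the members (42.1%, against 20.0% of the 8448 genes). Over the 8448 genes, chicks 7, 10 and 29 were the lowest of these groups more often (29.6%, 26.3% and 35.5%). The RPE markers did not share this order. RDH5 was lowest in the same chicks, at 5.32, 7.12 and 13.8 CPM. TTR (275.5, 261.1 and 384.2 CPM) and LRAT (133.2, 140.1 and 150.1 CPM) were the highest of their groups in chicks 3, 9 and 26. RPE65 was lowest in chicks 3 and 9 but not in chick 26, and BEST1 was lowest in chick 3 only. The part of these library differences in the spread was not tested. KCNH2 was at 9.79 CPM in control chick 3, against 25.1 to 52.4 CPM in the other controls. At 0 h it was at 15.6 CPM in chick 9, against 42.7 to 47.5 CPM in the others, and at 24 h at 25.0 CPM in chick 26, against 61.4 to 70.5 CPM in the others. KCNK3 was at 5.59, 9.03 and 14.6 CPM in chicks 3, 9 and 26, and at 14.9 to 50.5 CPM in the other 9 chicks of these groups. KCNS1 was at 9.79, 16.1 and 18.05 CPM in the same 3 chicks, and at 18.4 to 39.9 CPM in the other 9. The groups overlapped widely for these genes, and none of them was called. Their log2 fold changes at 24 h compared with 6 h were 1.06 for KCNH2 (SE 0.41), 0.78 for KCNK3 (SE 0.44) and 0.77 for KCNS1 (SE 0.34).

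**Figure D4:**
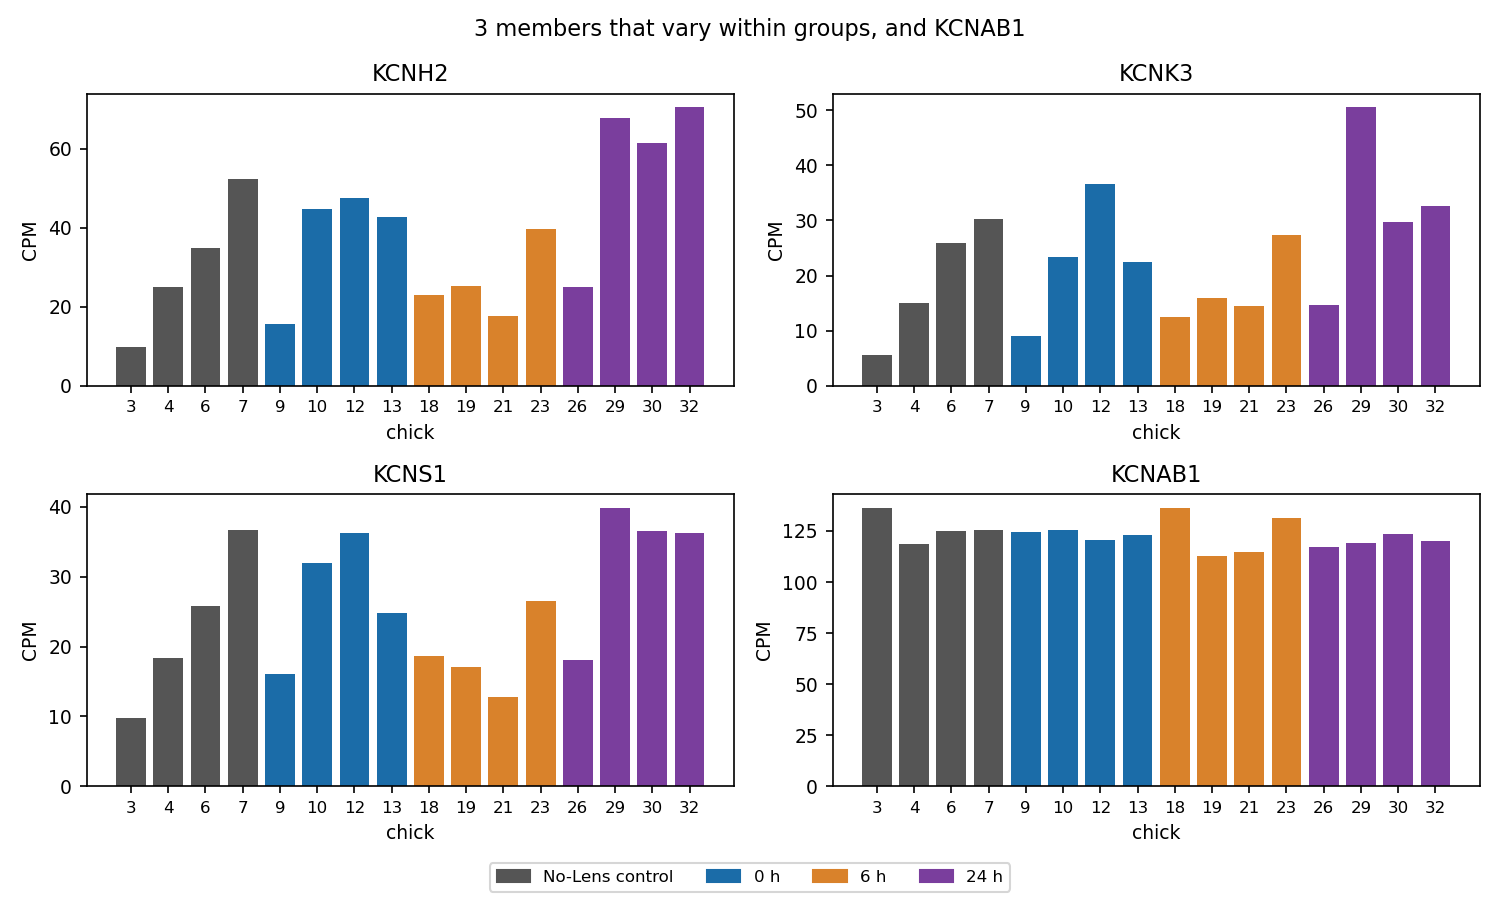
CPM (y axis) of KCNH2, KCNK3, KCNS1 and KCNAB1 in each of the 16 chicks (x axis, chick number), with bars coloured by group. Chicks 3, 9 and 26 are the lowest of their groups for KCNH2, KCNK3 and KCNS1, whereas KCNAB1 is level across the chicks.

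A further fit left out chicks 3, 9 and 26, a choice made after seeing these values that lowers the spread by construction. For genes lowest in these chicks, such as KCNH2, KCNK3, KCNS1, KCNH4 and KCNH6, it also raises the mean of each group but 6 h. Calls of such genes against 6 h were thus favoured by the choice. In that fit 9 of 59 genes were called at 24 h compared with 6 h (15.3%), and so were 9.23% of all genes tested. The members were KCNA4, KCNC1, KCNH2, KCNH4, KCNH6, KCNK3, KCNK18, KCNMB2 and KCNS1. Likewise 5 were called at 6 h compared with 0 h (8.47%, against 4.60% of all genes in that fit), where KCNH4 and KCNH6 joined KCNJ13, KCNMB2 and KCNQ1, and 8 in the test of the 4 groups (13.6%, against 7.88%). At 24 h compared with the controls 0 were called without them (against 1.45% of all genes), with an edgeR adjusted p of 0.066 for KCNJ13 and 0.0585 for KCNMB2. The calls of KCNJ13, KCNMB2 and KCNQ1 at 6 h compared with 0 h held without these chicks.

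The table also holds 4 genes that it names by other symbols and that encode potassium channels. By the gene descriptions deposited with the counts, CKV1.1, SK2 and IRK1 are KCNA3, KCNN2 and KCNJ2, and none of them was called in any comparison. CO6, which is KCNMB1, another BK auxiliary subunit typical of smooth muscle, had 2, 8, 1 and 2 counts at 6 h, against 13, 13, 9 and 13 counts at 0 h. It was called lower at 6 h, with a log2 fold change of -2.001 (SE 0.52, edgeR adjusted p = 0.0392). CO6 held 10 counts or more in 4 libraries, 3 of them at 0 h and the other at 24 h, so that it met the filter only through the group where it was high. Of the 5 smooth muscle markers, TAGLN and ACTG2 were called lower in the same comparison, and their part in this result was not tested.

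Proteins that assemble with or anchor potassium channels were followed as a list of 26 genes, of which 18 were tested. DMD, which encodes dystrophin, an anchor of channel complexes in Müller glia, was called lower at 6 h than at 0 h, at 474 ± 15.1 CPM and 584 ± 31.4 CPM (SD, n = 4 each), with a log2 fold change of -0.30 (SE 0.06, edgeR adjusted p = 0.00261). It was also called lower at 6 h than in the controls and higher at 24 h than at 6 h, and no other gene of the list was called in any pairwise comparison, so that the count was 1 of 18 in each of these 3 comparisons (5.56%, backgrounds 1.94% to 3.19%) and 0 in the other 3. A single gene of 18 is near those shares. The median log2 fold change of the list at 6 h compared with 0 h was 0.01. Among 34 genes for pumps, cotransporters and exchangers that move potassium, 18 were tested, and 3 of these were called at 6 h compared with 0 h (16.7%, background 3.19%). The list was chosen with earlier results of these data known, so its shares are not an independent test of an excess. SLC24A1, the potassium-dependent sodium-calcium exchanger of rods in mammals, rose by 1.15 on the log2 scale (SE 0.19, edgeR adjusted p = 0.00104). SLC24A4, of the same exchanger family, fell by 1.03 on the log2 scale (SE 0.10, edgeR adjusted p = 3.59e-06). SLC24A2, the exchanger of cones, fell by 0.43 on the log2 scale (SE 0.07, edgeR adjusted p = 0.00096). The same 3 genes were called in the same directions at 6 h compared with the controls (16.7%, background 2.74%). SLC24A2 and SLC24A4 were lower than in the controls at 24 h (11.1%, background 1.33%). SLC24A4 was higher at 24 h than at 6 h by 0.66 on the log2 scale (SE 0.10, edgeR adjusted p = 0.0015), the 1 gene called there (5.56%, background 1.94%). No gene of this list was called at 0 h compared with the controls (background 0.0265%) or at 24 h compared with 0 h (background 1.12%). The median log2 fold change of the 18 at 6 h compared with 0 h was -0.04. Photoreceptor markers were lower at 6 h as well, and their part in these results was not tested.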

How the data were processed

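RNA from the retina/RPE/choroid of 16 chicks was sequenced from stranded mRNA libraries. According to the methods and the submitters' processing notes, the authors checked reads with FastQC and trimmed them with cutadapt and Trimmomatic. Alignment used TopHat2 over Bowtie2, with galGal4 as the genome, and HTSeq gave the counts per gene. Annotation version and strand option are not given in the sources used here, so overlapping genes are uncertain. The deposited values are raw read counts per gene, with 6 further lines that name no gene (41.9% to 45.9% of a chick's total), which were left out.

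Groups came from the labels, and the chick was the replicate. Counts were fitted in R 4.3.3 with edgeR 4.0.16 (glmQLFit, TMM, 1 mean per group, 12 residual degrees of freedom, Benjamini-Hochberg over all genes tested), with a biological coefficient of variation of 12.5%. Alternatives used DESeq2 1.42.0, edgeR's likelihood ratio test, RLE factors, no filter, a filter at 1 CPM in 4 libraries, only the compared groups, and leaving out each chick. The fit was also run on simulated counts with changes set at 6 h only. These counts held no shared differences between chicks of a group beyond library size, so they do not test the fit against such differences. RefSeq names came from GRCg7b, where 70 of 71 symbols matched. Figures used Python 3.11.15 and matplotlib 3.10.9.

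The members, classes and lists were chosen with earlier results of these data known. Genes named were those called in any test, the 4 with the smallest p in each comparison, the 2 of highest mean CPM in each class, and those with the largest and smallest coefficient of variation, 18 in all; others are said to be chosen after their values were seen or belong to a list. A few of them, and another channel gene, are not reported here.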

Additional observations from a re-analysis of the deposited data

Results flagged for a closer look

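For 18 potassium channel genes in 4 groups, 72 sets of 4 chicks were examined for a chick that stood apart from the other 3, which chance gives in about 1 of 20 sets, and 5 such values were found. KCNH7 was at 40.3 CPM in chick 13 at 0 h, against 76.1 to 79.8 CPM in the other 3. KCNMA1 was at 247 CPM in chick 21 at 6 h, against 206 to 212 CPM. KCNK1 was at 32.6 CPM in chick 29 at 24 h, the chick with the fewest counts, against 42.8 to 44.3 CPM. KCNQ1 was at 13.9 CPM in chick 32 at 24 h, against 15.9 to 16.1 CPM, and KCNH4 was at 3.92 CPM in control chick 3, against 5.63 to 5.98 CPM.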

How the results depend on the processing

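Genes of a few CPM, such as KCNK18, KCNG1 and KCNH4, rest on few counts per chick and carry a large counting error, which limits what the 4 chicks of a group can show for them. Of 24 log2 fold changes of named genes, recomputed 358 times in all, 339 values kept their direction and side of the threshold, 10 missed it, 9 newly passed it and 0 changed direction. KCNJ13, KCNMB2 and KCNQ1 at 6 h compared with 0 h were called under each of the 15 alternatives run. The scaling alternatives moved the median of all genes by at most 0.01 on the log2 scale. The number of potassium channel genes called moved by over 1.5 times in these cases. The likelihood ratio test called 5 at 24 h compared with 6 h (8.47%, against 3.34% of all genes in that fit), 2 at 24 h compared with 0 h (3.39%, against 1.99%) and 4 at 24 h compared with the controls (6.78%, against 2.63%). A fit of the 2 compared groups alone called 0 at 24 h compared with the controls (against 0.838%). Another fit left out chicks 3, 9 and 26, chosen after seeing the data as the lowest of their groups for some of these genes. It called 5 at 6 h compared with 0 h (8.47%, against 4.60%) and 9 at 24 h compared with 6 h (15.3%, against 9.23%). At 24 h compared with the controls it called 0 (against 1.45%), and in the test of the 4 groups 8 (13.6%, against 7.88%). Leaving out single chicks gave 1 to 3 at 24 h compared with 6 h (1 without chick 18, 19, 23, 30 or 32) and 1 to 3 at 24 h compared with the controls (1 without chick 4). The share of all genes called was not taken from the fits without a single chick. Whether these counts moved with the rest of the genes is therefore not known. The cause of these shifts was not tested. No paired analysis was possible because the chick numbers are not shared between groups.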
